A study of Homo sapiens with 4 samples.

Results

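The miRNAs described here are the 5 guide strands of the miR-23a/27a/24-2 and miR-23b/27b/24-1 clusters, hsa-miR-23a-3p, hsa-miR-27a-3p, hsa-miR-24-3p, hsa-miR-23b-3p and hsa-miR-27b-3p. They were taken by name from the list of miRNAs and are 5 of the 1474 miRNAs with at least 1 count in at least 1 library. All 5 had counts in all 4 libraries. HCT116 and RKO, the parental lines, are established lines of human colorectal cancer. By irradiation of each with 4 Gy at a time, up to 40 Gy in total, lines with acquired radioresistance were grown, named HCT116-R and RKO-R, which were then kept for 3 weeks or more without irradiation. Each of the 4 lines gave 1 small RNA library, so no difference between lines has a replicate check, and whether the radioresistant lines are clonal is not given in the sources used here. The question asked of the 5 miRNAs was whether those of one cluster changed together in each pair of a radioresistant and a parental line.

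A miRNA cluster is a group of hairpins cut from one primary transcript by Drosha and then by Dicer. One strand of each hairpin, the guide, is loaded into an Argonaute protein and pairs with target mRNAs through its seed, bases 2 to 8 counted from the 5′ end. Mates of a cluster share transcription, while processing, loading and decay act on each miRNA separately. The miR-23/27/24 clusters exist as a pair of paralogs in vertebrates. MiR-27 is known for repressing regulators of fat cell differentiation, miR-23a for repressing mitochondrial glutaminase, and miR-24 for repressing cell cycle genes and the histone H2AX, which marks DNA double-strand breaks.

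The mature sequences are shown because they decide which of the 5 miRNAs can be told apart. They were taken from RefSeq on GRCh38.p14, where all 5 names were matched, and the seed is in capitals.
hsa-miR-23a-3p: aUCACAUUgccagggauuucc
hsa-miR-23b-3p: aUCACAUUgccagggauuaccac
hsa-miR-27a-3p: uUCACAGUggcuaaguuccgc
hsa-miR-27b-3p: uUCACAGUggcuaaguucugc
hsa-miR-24-3p: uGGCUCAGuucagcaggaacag

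The 5 miRNAs therefore carry 3 seeds, 1 for each family. MiR-23a-3p (21 bases) and miR-23b-3p (23 bases) differ over their 21 shared positions by U19A, counted from the 5′ end with the base of miR-23a-3p first, and miR-23b-3p has 2 further bases at its 3′ end. MiR-27a-3p and miR-27b-3p, both of 21 bases, differ by C19U alone. A read that ends before base 19 fits both paralogs, and how such reads were divided is not given in the sources used here, so the counts of a and b forms are uncertain to that extent. MiR-24-3p is encoded with the same 22 bases in both clusters, and its counts cannot be assigned to either. Of other human miRNAs in the reference, miR-23c shares the miR-23 seed and had no count in the 4 libraries, and miR-9985 shares the miR-27 seed and had 1 count, in HCT116-R.

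The miR-23a cluster lies on the minus strand of chromosome 19 and spans 373 bases, chr19:13836287-13836659 (GRCh38). Its hairpins follow in the order MIR23A, MIR27A and MIR24-2 in the direction of transcription, and all 3 overlap an exon of AC020916.1, a gene of the type antisense in GENCODE release 29. The miR-23b cluster lies on the plus strand of chromosome 9 and spans 881 bases, chr9:95085208-95086088. MIR23B and MIR27B lie in introns of the protein-coding gene C9orf3, and MIR24-1 overlaps an annotated exon of a C9orf3 transcript. The hairpin of MIR3074 is annotated on the opposite strand of MIR24-1, and miR-3074-5p is the reverse complement of miR-24-3p over 20 bases. These 20 bases, bases 1 to 20 of both miRNAs, are in capitals.
hsa-miR-24-3p: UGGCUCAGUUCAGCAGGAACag
hsa-miR-3074-5p: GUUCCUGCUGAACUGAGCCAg

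The 4 libraries held between 6818497 and 7140460 counts, and 3 counts, the smallest number taken as detectable, correspond to 0.420 to 0.440 CPM, the count scaled by the library total. Of 9 miRNAs of colon epithelium, 8 or 9 were detected per library. Their summed level was 63649 CPM (HCT116), 59230 CPM (HCT116-R), 10538 CPM (RKO) and 12242 CPM (RKO-R), and miR-215-5p was at 0 in HCT116, RKO and RKO-R. MiR-200c-3p held much of the sum in HCT116, with 42717 CPM, and had 90.9 CPM in RKO. MiR-141-3p had 972 CPM in HCT116 and 2.38 CPM in RKO, while miR-192-5p had 226 and 220 CPM. Of 2 mesenchymal miRNAs the sum lay between 7.14 CPM in RKO and 299 CPM in HCT116, and 4 blood miRNAs summed to between 5.64 and 24.2 CPM. The liver miRNA miR-122-5p lay between 2.60 and 82.1 CPM, 2 muscle miRNAs together had 3 to 5 counts, and the endothelial miR-126-3p had 3452 to 8331 CPM. The part of these lists in the results was not tested.

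Together the 5 miRNAs held 4.08% (HCT116), 3.61% (HCT116-R), 3.68% (RKO) and 2.92% (RKO-R) of all counts. The members of the miR-23a cluster and miR-24-3p were among the 30 most abundant miRNAs of every library, at ranks between 11 and 30. The 2 guide strands found in the miR-23b cluster alone were much rarer and made up 3.47%, 3.09%, 2.04% and 2.17% of the counts of the 5 in the same order of libraries. Mature miRNAs of this length are read whole, so CPM is compared between them without scaling for length. Ligation differs between sequences, and a level is therefore firmer between libraries than between miRNAs.

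MiR-23a-3p had 12322 CPM in HCT116 (95% Wilson confidence interval 12240 to 12406), 10059 (9984 to 10134) in HCT116-R, 7656 (7592 to 7720) in RKO and 7195 (7132 to 7258) in RKO-R. Its levels were higher in both libraries of HCT116 origin than in both of RKO origin. MiR-27a-3p had 19545 CPM (19442 to 19650) in HCT116, 12028 (11946 to 12110) in HCT116-R, 7132 (7071 to 7194) in RKO and 8453 (8385 to 8522) in RKO-R. The same order by line was seen, and the radioresistant libraries lay between the parental ones. MiR-24-3p had 7516 CPM (7451 to 7581) in HCT116, 12909 (12824 to 12994) in HCT116-R, 21307 (21201 to 21413) in RKO and 12870 (12787 to 12955) in RKO-R. It was highest where miR-27a-3p was lowest, and its intervals in HCT116-R and RKO-R overlapped. The intervals cover counting error only.

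MiR-23b-3p had 361 CPM (347 to 376) in HCT116, 330 (317 to 344) in HCT116-R, 139 (130 to 148) in RKO and 89.8 (83.0 to 97.2) in RKO-R. MiR-27b-3p had 1055 CPM (1031 to 1080), 785 (764 to 806), 614 (596 to 632) and 542 (525 to 559) in the same libraries. For both, the libraries of HCT116 origin lay above those of RKO origin, and each radioresistant library lay below its parental library on the CPM scale. The order of the 5 within a library was miR-27a-3p, miR-23a-3p and miR-24-3p in HCT116 and miR-24-3p, miR-27a-3p and miR-23a-3p in HCT116-R and RKO-R. In RKO the order was miR-24-3p, miR-23a-3p and miR-27a-3p, and miR-27b-3p and miR-23b-3p came last in all 4.

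**Figure D1:**
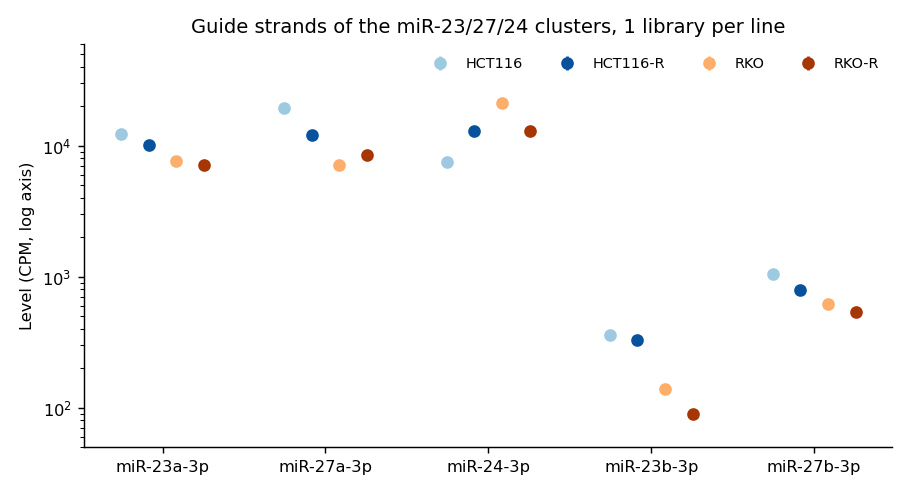
Level of each guide strand in CPM (log axis) in the 4 libraries, 1 point per library, with bars for the 95% Wilson interval, which are mostly smaller than the points. MiR-24-3p was lowest in HCT116 (7516 CPM) and highest in RKO (21307 CPM), and miR-27a-3p was highest in HCT116 (19545 CPM) and lowest in RKO (7132 CPM).

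None of the 5 miRNAs was called between a radioresistant line and its parental line. The estimates of miR-24-3p and miR-27a-3p lay on opposite sides of 0 in both pairs, with miR-24-3p above 0 in HCT116-R and below 0 in RKO-R. Within each pair the exact test of edgeR was run at a biological coefficient of variation (BCV) of 0.2. This BCV is assumed, not measured, so the tests compare libraries and not conditions. In HCT116-R against HCT116, none of the 5 miRNAs passed the adjusted p of 0.05, while 4.01% of the 1322 miRNAs tested did. In RKO-R against RKO the count was also 0 of 5, against 5.54% of 1155. Without adjustment 0 of the 5 were under 0.05 in either pair. Of all miRNAs, 149 of 1322 were in the HCT116 pair and 148 of 1155 in the RKO pair. The likelihood ratio test called 0 of the 5 in either pair, against 65 of 1322 and 93 of 1155 miRNAs. No member reached 2-fold in either pair. Of miRNAs that had 500 or more counts in both libraries, 5.42% reached it in the HCT116 pair. The share for the RKO pair was 10.8%. That no member was called does not show that the levels were the same.

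In the HCT116 pair miR-23a-3p had a log2 fold change of -0.31 and miR-27a-3p one of -0.72 (SE 0.41 for both), with an adjusted p of 1 and 0.54 by the edgeR exact test. MiR-24-3p stood at 0.76 (SE 0.41, adjusted p = 0.52), with the opposite sign to its mates. MiR-23b-3p stood at -0.15 and miR-27b-3p at -0.45 (adjusted p = 1 and 0.90). The estimates of the 4 miR-23 and miR-27 strands were thus all below 0 and that of miR-24-3p above 0. The median over the 5 was -0.31, and it was -0.18 over the 166 miRNAs with at least 500 counts in both libraries and 0.07 over all tested.

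In the RKO pair the signs of the miR-23a cluster were turned around. By the edgeR exact test, the log2 fold change was 0.15 for miR-23a-3p (SE 0.41, adjusted p = 1), 0.48 for miR-27a-3p (SE 0.41, adjusted p = 0.84) and -0.49 for miR-24-3p (SE 0.41, adjusted p = 0.84). MiR-23b-3p stood at -0.39 (adjusted p = 0.97) and miR-27b-3p at 0.06 (adjusted p = 1). The median over the 5 was 0.06, and it was 0.12 over the 148 miRNAs with at least 500 counts in both libraries and 0.02 over all tested. These values depend on scaling, because the TMM factors were 1.09 in RKO and 0.921 in RKO-R. With library totals in place of TMM the median of all miRNAs moved by -0.24, and miR-23a-3p (-0.0896) and miR-27b-3p (-0.18) changed sign, while the sign of miR-27a-3p and miR-24-3p stayed.

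**Figure D2:**
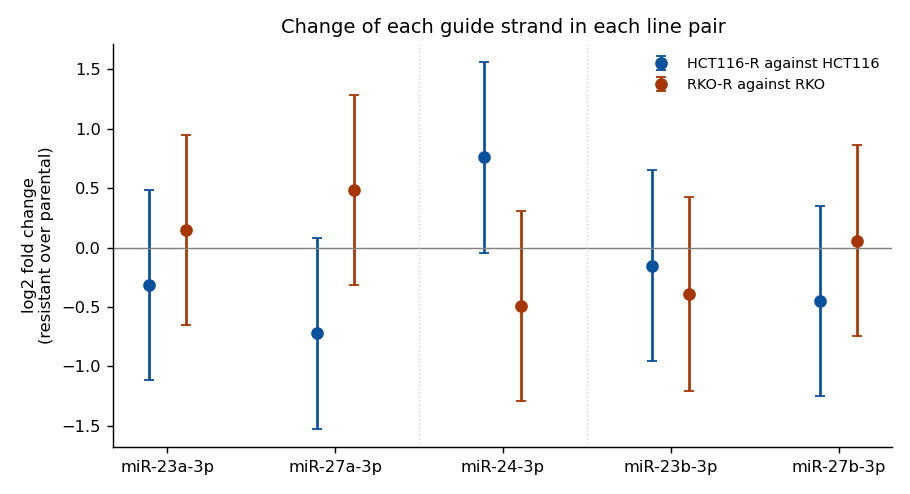
Log2 fold change of each guide strand (radioresistant over parental, TMM scaled) in the HCT116 pair and the RKO pair, with bars for the 95% interval from the counts and the assumed BCV of 0.2. All 10 intervals include 0, and miR-27a-3p and miR-24-3p lie on opposite sides of 0 in both pairs.

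Because scaling cancels when mates of one library are set against each other, the differences between mates carry the comparison within a cluster. There were 12 such differences, 6 per pair, and each is given with a 95% interval from the counts and the BCV of 0.2, without adjustment for their number. In the HCT116 pair miR-24-3p exceeded miR-27a-3p by 1.48 in log2 fold change (0.35 to 2.61) and miR-27b-3p by 1.21 (0.07 to 2.34). These were the only 2 of the 12 intervals that left out 0, and at a BCV of 0.4 the first of them ran from -0.78 to 3.74. Against miR-23a-3p the difference was 1.07 (-0.06 to 2.20) and against miR-23b-3p 0.91 (-0.22 to 2.05). All 4 differences of miR-24-3p from its mates had the same sign in this pair, but they share the estimate of miR-24-3p and are not independent.

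In the RKO pair miR-24-3p differed from miR-27a-3p by -0.97 (-2.10 to 0.16), from miR-23a-3p by -0.64 (-1.77 to 0.49), from miR-27b-3p by -0.55 (-1.68 to 0.59) and from miR-23b-3p by -0.10 (-1.24 to 1.04). All 4 intervals include 0. The differences between the miR-27 and miR-23 mates were at most 0.45 in size. MiR-27a-3p differed from miR-23a-3p by -0.41 (-1.54 to 0.72) in HCT116-R and by 0.33 (-0.80 to 1.47) in RKO-R. MiR-27b-3p differed from miR-23b-3p by -0.30 (-1.43 to 0.84) and 0.45 (-0.70 to 1.59). In both clusters the miR-27 to miR-23 difference was thus below 0 for HCT116-R and above 0 for RKO-R, and all 4 intervals include 0.

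In counts, the ratio of miR-24-3p to miR-27a-3p was 0.385 in HCT116 and 1.07 in HCT116-R, while it was 2.99 in RKO and 1.52 in RKO-R. The parental libraries differed 7.77-fold in this ratio and the radioresistant libraries 1.42-fold. The ratio of miR-24-3p to miR-23a-3p was 0.610, 1.28, 2.78 and 1.79 in the same order, and that of miR-27a-3p to miR-23a-3p was 1.59, 1.20, 0.932 and 1.17. For the last ratio the radioresistant libraries differed 1.02-fold. In the other cluster the ratio of miR-27b-3p to miR-23b-3p was 2.92, 2.38, 4.43 and 6.03, and here the radioresistant libraries (2.53-fold) lay further apart than the parental ones (1.52-fold). Each ratio rests on 1 library per line.

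**Figure D3:**
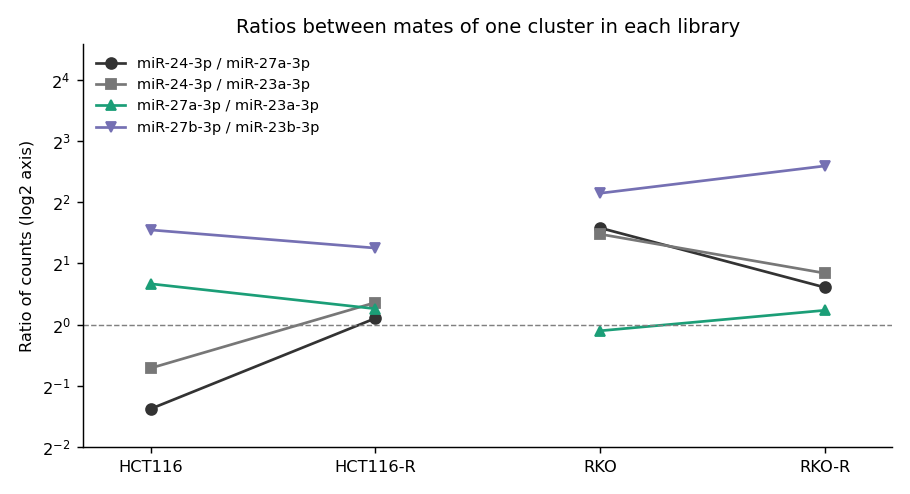
Ratio of the counts of cluster mates (log2 axis) in each of the 4 libraries, with lines joining a parental library to its radioresistant library and a dashed line at equal counts. The ratio of miR-24-3p to miR-27a-3p runs from 0.385 to 1.07 between HCT116 and HCT116-R. It runs from 2.99 to 1.52 between RKO and RKO-R.

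The division between paralogs was compared next. MiR-23b-3p made up 2.85% of the counts of miR-23a-3p and miR-23b-3p in HCT116 (95% Wilson interval 2.74 to 2.96), 3.18% (3.05 to 3.31) in HCT116-R, 1.78% (1.67 to 1.89) in RKO and 1.23% (1.14 to 1.33) in RKO-R. MiR-27b-3p made up 5.12% (5.01 to 5.24), 6.13% (5.97 to 6.29), 7.92% (7.70 to 8.15) and 6.02% (5.84 to 6.21) of the miR-27 counts. The counting intervals of parental and radioresistant libraries did not overlap, but the difference in log2 fold change between the paralogs (a form minus b form) was -0.16 and 0.54 for miR-23 and -0.27 and 0.43 for miR-27 in the HCT116 and RKO pairs, and all 4 intervals at the assumed BCV included 0. The a form held at least 92.1% of its family in every library.

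The difference between the pairs was tested in a fit of all 4 libraries with the interaction of line and radioresistance (likelihood ratio test of edgeR, BCV 0.2). None of the 5 passed, and 4.75% of 1474 miRNAs did. Without adjustment 2 of the 5, miR-24-3p and miR-27a-3p, were under 0.05, as were 212 of all 1474 miRNAs. MiR-24-3p had a difference in log2 fold change, RKO pair minus HCT116 pair, of -1.28 (adjusted p = 0.24 in this edgeR test), and miR-27a-3p one of 1.17 (adjusted p = 0.32). The other 3 differences lay between -0.27 and 0.47 with an adjusted p of 1. Both lines also entered edgeR's quasi-likelihood test, with line as a factor and 1 residual degree of freedom. In it 0 of the 5 passed, against 0.678% of the 590 miRNAs tested. Without adjustment 0 of the 5 were under 0.05, against 14 of the 590. DESeq2 called 0 of the 5 in the same design, and 4 of 1474 miRNAs.

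Between the parental lines the estimates of all 5 were larger in size than within the pairs. In RKO against HCT116, 3 of the 5 were called, while 25.5% of 1289 miRNAs were. MiR-24-3p rose to RKO by 1.38 on the log2 scale (SE 0.41, edgeR exact test, adjusted p = 0.0052). MiR-27a-3p fell by 1.58 (SE 0.41, adjusted p = 0.0011) and miR-23b-3p fell by 1.51 (SE 0.41, adjusted p = 0.0021). MiR-23a-3p at -0.81 (adjusted p = 0.15) and miR-27b-3p at -0.91 (adjusted p = 0.0995) were not called. At a BCV of 0.4 the count was 0 of 5, against 152 of 1289 miRNAs. MiR-24-3p was thus the higher in RKO and miR-27a-3p the higher in HCT116. The parental libraries enter this comparison and those of the pairs, so the values are not independent.

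The 6 other strands of the same hairpins were read as a second measure of each hairpin. For miR-27a-5p the libraries held 3481 (HCT116), 2189 (HCT116-R), 3587 (RKO) and 2724 (RKO-R) counts. Its log2 fold change was -0.69 (edgeR exact test, adjusted p = 0.59) in the HCT116 pair, next to -0.72 for miR-27a-3p, and -0.11 (adjusted p = 1) in the RKO pair, next to 0.48. The share of the 5p strand in both strands of MIR27A was 2.54% in HCT116 (2.46 to 2.63), 2.60% (2.49 to 2.71) in HCT116-R, 6.58% (6.37 to 6.79) in RKO and 4.45% (4.29 to 4.62) in RKO-R. The counting intervals overlapped in the HCT116 pair, and the share was higher in both libraries of RKO origin. MiR-27b-5p had 364, 339, 518 and 314 counts, with log2 fold changes of -0.12 and -0.44, and miR-23b-5p had 64, 97, 59 and 59 counts, with 0.58 and 0.28, none of which was called.

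For miR-23a-5p the libraries held 52 (HCT116), 43 (HCT116-R), 141 (RKO) and 26 (RKO-R) counts. RKO stands apart from the other 3 libraries. In the RKO pair its log2 fold change was -2.15 (SE 0.51, edgeR exact test, adjusted p = 0.0014), and it was the only 1 of the 6 other strands that was called in that pair. In the HCT116 pair 0 of the 6 were called, with miR-23a-5p at -0.29. The change differed from that of miR-23a-3p in the same pair by -2.30 (-3.58 to -1.02). The 5p strand made up 0.257% of both strands of MIR23A in RKO (0.218 to 0.303) and 0.0522% (0.0357 to 0.0765) in RKO-R, against 0.0618% and 0.0627% in HCT116 and HCT116-R. The difference between the pairs, -1.89, had an adjusted p of 0.11 in the likelihood ratio test.

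**Figure D4:**
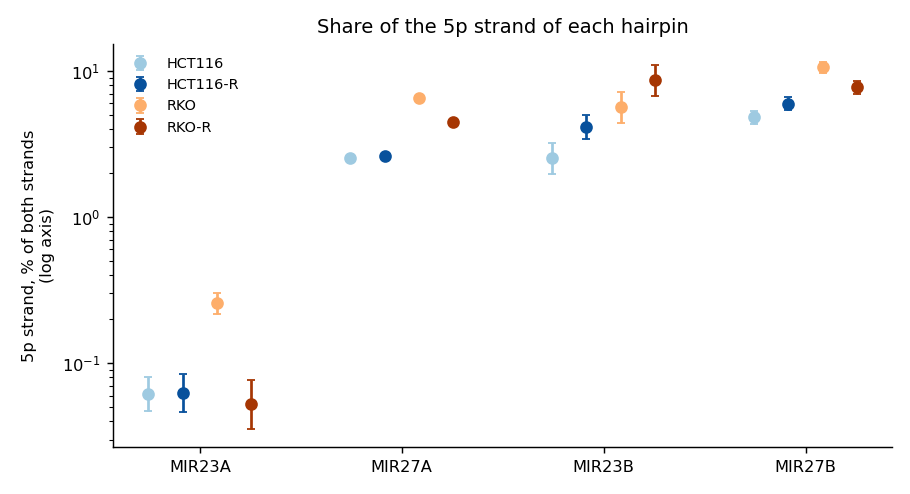
Share of the 5p strand in the counts of both strands (%, log axis) for the 4 hairpins of miR-23 and miR-27 in each library, with bars for the 95% Wilson interval. The share of MIR23A was 0.257% in RKO and between 0.0522% and 0.0627% in the other 3 libraries.

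MiR-24-1-5p and miR-24-2-5p differ in sequence, so each can be assigned to its own miR-24 hairpin, but they were near the limit of detection. Whether their ratio follows the use of the hairpins was not tested. MiR-24-1-5p had 5, 11, 13 and 13 counts and miR-24-2-5p 3, 9, 22 and 14 in HCT116, HCT116-R, RKO and RKO-R. The share of miR-24-2-5p in the sum was 37.5% (13.7 to 69.4), 45.0% (25.8 to 65.8), 62.9% (46.3 to 76.8) and 51.9% (34.0 to 69.3). All 4 intervals overlap, and a difference in these shares was not detectable at this depth. MiR-3074-3p, with 8, 11, 52 and 38 counts, is annotated on the opposite strand at positions that overlap those of miR-24-1-5p. How strand was used in counting is not given, so the counts of miR-24-1-5p and these shares are uncertain to that extent too. Both strands together made up at most 0.0303% of the miR-24 counts. Neither strand was called in a pair of radioresistant and parental lines, and in RKO against HCT116 miR-24-2-5p was called from 3 counts in HCT116 and 22 in RKO.

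MiR-3074-5p, whose first 20 bases are complementary to miR-24-3p, was lowest in HCT116 and highest in RKO, as miR-24-3p was, with 24615 (HCT116), 29761 (HCT116-R), 51163 (RKO) and 30386 (RKO-R) counts. Its share in the sum of both was 32.4% in HCT116 and 25.3%, 25.2% and 25.5% in HCT116-R, RKO and RKO-R. Its log2 fold change of 0.25 in HCT116-R was not called, nor was that of -0.47 in RKO-R. MiR-3074-3p, its other strand, had 8, 11, 52 and 38 counts. Without knowledge of how strand was used in counting, reads of miR-24-3p and miR-3074-5p cannot be told apart, and the part of this in the values was not tested. With both summed, the difference between miR-24-3p and miR-27a-3p in the HCT116 pair was 1.34 (0.20 to 2.47). Within each pair the sign of miR-24-3p was the same with and without the sum, above 0 in HCT116-R and below 0 in RKO-R.

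Other clusters were taken as a reference for how far mates part. The spread, the highest minus the lowest log2 fold change of a cluster, was 1.48 (HCT116 pair) and 0.97 (RKO pair) for the miR-23a cluster, and 1.21 and 0.55 for the miR-23b cluster. With miR-24-3p left out it was 0.41 and 0.33, and 0.30 and 0.45. The 6 guide strands of the miR-17-92a cluster, which promotes proliferation, spread over 0.73 and 0.74, and some of them are also made elsewhere in the genome. The cluster of miR-183-5p, miR-96-5p and miR-182-5p, known from sensory organs, spread over 0.86 and 2.48, with miR-183-5p called in RKO-R (log2 fold change 2.26, edgeR exact test, adjusted p = 1.0e-05). MiR-191-5p and miR-425-5p, which share a cluster in an intron, parted by 0.16 and 0.01. The spreads differ in the number of mates and were not tested against each other.

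**Figure D5:**
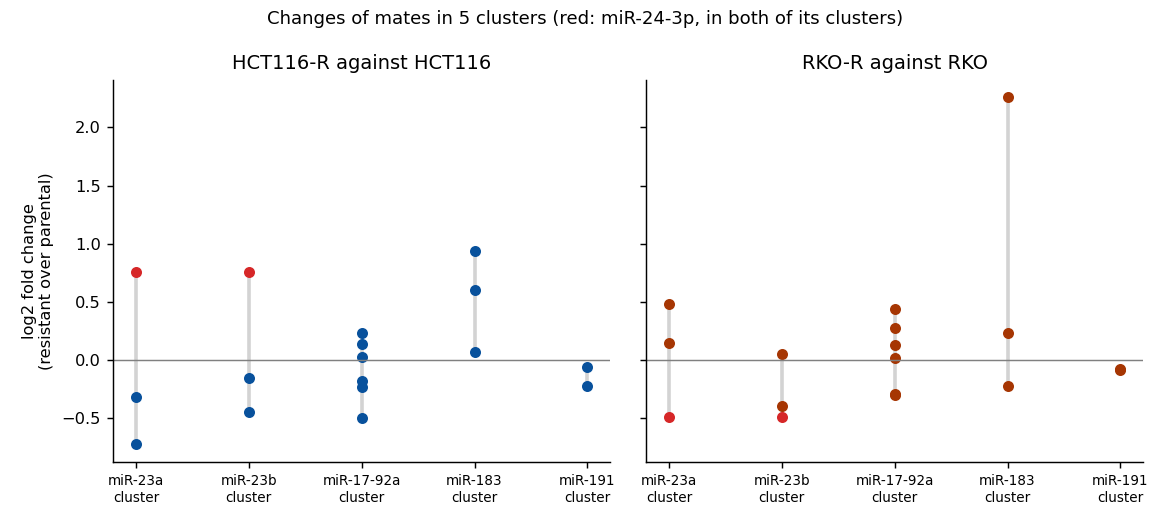
Log2 fold change of the mates of 5 clusters (radioresistant over parental) in the HCT116 pair (left) and the RKO pair (right), with 1 point per miRNA, a grey line over the spread and miR-24-3p in red. MiR-24-3p is the highest of its clusters in the HCT116 pair (0.76) and the lowest in the RKO pair (-0.49).

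Among 84 miRNAs outside these lists with at least 1000 counts in every library, miR-193b-3p, miR-345-5p and miR-99b-5p had the profile nearest to the mean of the 5. Nearness was the Euclidean distance over the 4 libraries of log2 CPM centred on its mean, and it was 0.03, 0.22 and 0.29. MiR-193b-3p had 916, 821, 631 and 509 CPM in HCT116, HCT116-R, RKO and RKO-R. The mean profile hides the opposite course of miR-24-3p, and the likeness is a description of 4 libraries.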

How the data were processed

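Small RNA of 18 to 30 nt was sequenced on the BGISEQ-500 platform from 1 library each of HCT116, RKO and their radioresistant lines, after ligation of adapters that carry molecular identifiers. The values the authors deposited are counts per mature miRNA, not normalized. The submitters' processing notes list Bowtie2 and the build hg38. The miRNA annotation, the use of strand and the collapsing of molecular identifiers are not given in the sources used here. Where a table lacks a miRNA, its count was set to 0. Groups came from the sample titles.

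Counts were scaled to CPM by the library total. Pairs were compared by the exact test of edgeR 4.0.16 (R 4.3.3) with TMM and the BCV of 0.2 named in the study's methods, and Benjamini-Hochberg adjustment ran over every miRNA counted in the pair. Standard errors and intervals of log2 fold changes combine the counts with this BCV. The interaction and the quasi-likelihood fit used all 4 libraries. DESeq2 1.42.0 was an alternative. The tests were tried on simulated counts drawn at the same BCV of 0.2, so the trial cannot show whether that BCV suits these libraries. Sequences and positions came from RefSeq (GRCh38.p14), and 1313 of the 1474 listed names matched it. Gene overlaps came from GENCODE release 29. Tables were joined in Python 3.11.15.

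The members and lists were chosen with earlier results of these data known. The members, the other strands of their hairpins, their seed and antisense relatives, the 3 reference clusters and the 3 nearest profiles among miRNAs with at least 1000 counts were named. MiR-9985 came from the search for shared seeds. The 2-fold share among miRNAs with 500 counts was added after values had been seen.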

Additional observations from a re-analysis of the deposited data

Results flagged for a closer look

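The members, the other strands of their hairpins and their antisense relatives were screened for changes that differed between the HCT116 and RKO pairs. In the interaction test 3 strands had an unadjusted p under 0.05, as had 212 of all 1474 miRNAs. None of the 3 passed the adjustment over the 1474 miRNAs. The difference in log2 fold change, RKO pair minus HCT116 pair, was 1.17 for miR-27a-3p (adjusted p = 0.32 in the likelihood ratio test of edgeR at a BCV of 0.2) and -1.28 for miR-24-3p (adjusted p = 0.24 in the same edgeR test). It was -1.89 for miR-23a-5p (adjusted p = 0.11 in the same edgeR test), where RKO with 141 counts stands apart from the other libraries with 26 to 52 counts. No line has a second library to check these directions.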

How the results depend on the processing

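The number of the 5 miRNAs called depended on the assumed BCV. At a BCV of 0.1, 2 were called in HCT116-R against HCT116 (miR-27a-3p and miR-24-3p), 5 in RKO against HCT116 and 2 in the difference between the pairs. At a BCV of 0.4, 0 were called in RKO against HCT116. With an unadjusted p, 5 were called in RKO against HCT116, where 420 of 1289 miRNAs were. In the difference between the pairs 2 were called, as were 212 of 1474 miRNAs. The other alternatives of scaling, low-count filter, test and the sum with miR-3074-5p moved none of these counts. The difference of 1.48 between miR-24-3p and miR-27a-3p in the HCT116 pair, for which alternatives were chosen after seeing the data, had an interval of -0.78 to 3.74 at a BCV of 0.4 and of 0.91 to 2.05 at a BCV of 0.1. Among 210 log2 fold changes of single members under the alternatives, 3 changed sign, all in the RKO pair: with library totals, miR-23a-3p at -0.0896 and miR-27b-3p at -0.18, and with both strands summed, miR-27b-3p at -0.0045. Of the others, 194 kept their sign and their side of the threshold, 10 passed it and 3 no longer did, all 13 of them under another BCV or without adjustment. Part of the 210 could not change sign. For comparisons between single libraries, another BCV, the low-count filter, the likelihood ratio test and an unadjusted p leave the log2 fold change unchanged. Over all miRNAs, a BCV of 0.1 and of 0.4 called 154 and 24 in the HCT116 pair (53 at 0.2). In the RKO pair these BCVs called 148 and 9 (64), and for the difference between the pairs 178 and 14 (70). For the parental lines they called 420 and 152 (329). For both lines the quasi-likelihood test called 4, and it called 11 with no filter on low counts and 2 with library totals. The fit of both lines, with line as a factor, is paired by line. Within a group there was 1 library, so there were no replicate numbers to pair and no library was left out.

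Depth did not limit the guide strands, which had at least 621 counts. It limited miR-24-1-5p and miR-24-2-5p, with 3 to 22 counts.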
